A study of Mus musculus with 12 samples.

Results

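The transcripts of 9 enzymes that build and break down glycogen in muscle were followed in quadriceps of 7-day-old mice. They are Phkg1, Phka1 and Phkb (subunits of phosphorylase kinase), Pygm (muscle glycogen phosphorylase), Pgm1 (phosphoglucomutase), Ugp2 (UDP-glucose pyrophosphorylase), Gyg (glycogenin), Gys1 (muscle glycogen synthase) and Gbe1 (glycogen branching enzyme). They were chosen by name as the main enzymes of the pathway, with earlier results of these data known. All 9 were measured, each by 1 probe set, among 19938 genes with a probe set of their own. Total RNA was hybridized to 12 Affymetrix Mouse Gene 1.0 ST arrays, 1 mouse to an array. Of these, 6 were labelled cofilin-2 null (KO) and 6 wildtype (WT); all mice were C57Bl/6, collected by the study as 6 littermate pairs, with no treatment named. The labels number the mice 1 to 6 in each group and do not say that equal numbers mark littermates. The sources used do not describe the making of the Cfl2 allele.

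The targeted gene, Cfl2, opposed the labels. Its log2 level ran from 4.92 to 7.71 on the 6 arrays labelled WT and from 12.31 to 12.43 on the 6 arrays labelled KO. Every direction below therefore follows the deposited labels (KO over WT) and is opposite to the direction of Cfl2 loss that the study describes. No array was moved between groups. Defining transcripts of skeletal muscle were abundant in both groups, with the mean of 10 such genes between 12.13 and 12.47 on every array.

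Glycogen is the glucose store that muscle draws on during contraction. Glycogenin primes a new particle by attaching glucose to itself, glycogen synthase extends the chains with glucose taken from UDP-glucose, and the branching enzyme adds the branch points. In breakdown, calcium and adrenaline signals act through phosphorylase kinase, a complex of alpha, beta, gamma and calmodulin subunits. It phosphorylates glycogen phosphorylase, which releases glucose 1-phosphate, and phosphoglucomutase turns this into glucose 6-phosphate for glycolysis. Inherited loss of several of these enzymes causes glycogen storage diseases of muscle, among them McArdle disease when muscle phosphorylase is missing.

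Glycogen enzyme transcripts did not move as a block. The group that was higher on the arrays labelled KO held Phkg1, Pgm1, Gys1, Phkb and Pygm, at 1.27-fold to 2.89-fold, while Phka1, Gyg and Ugp2 did not pass the test and Gbe1 was slightly lower. In limma's test, adjusted by Benjamini-Hochberg over all 21789 probe sets with 1 symbol, 5 of the 9 passed in the higher direction, beside 19.5% of all probe sets, and 1 of the 9 passed in the lower direction, beside 12.4%. In either direction 31.9% of all probe sets passed. The median log2 difference was 0.34 over the 9 genes and -0.02 over all probe sets tested. In 5 of the 9 genes every array labelled KO lay above every array labelled WT, as in 10.5% of all probe sets. In 0 of the 9 did every array labelled KO lie below, as in 4.92%. As the 9 genes were chosen with earlier results of these data known, these counts beside the shares are a description only. Since whole muscle was measured, more cells of a kind and more RNA per cell cannot be told apart.

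**Figure D1:**
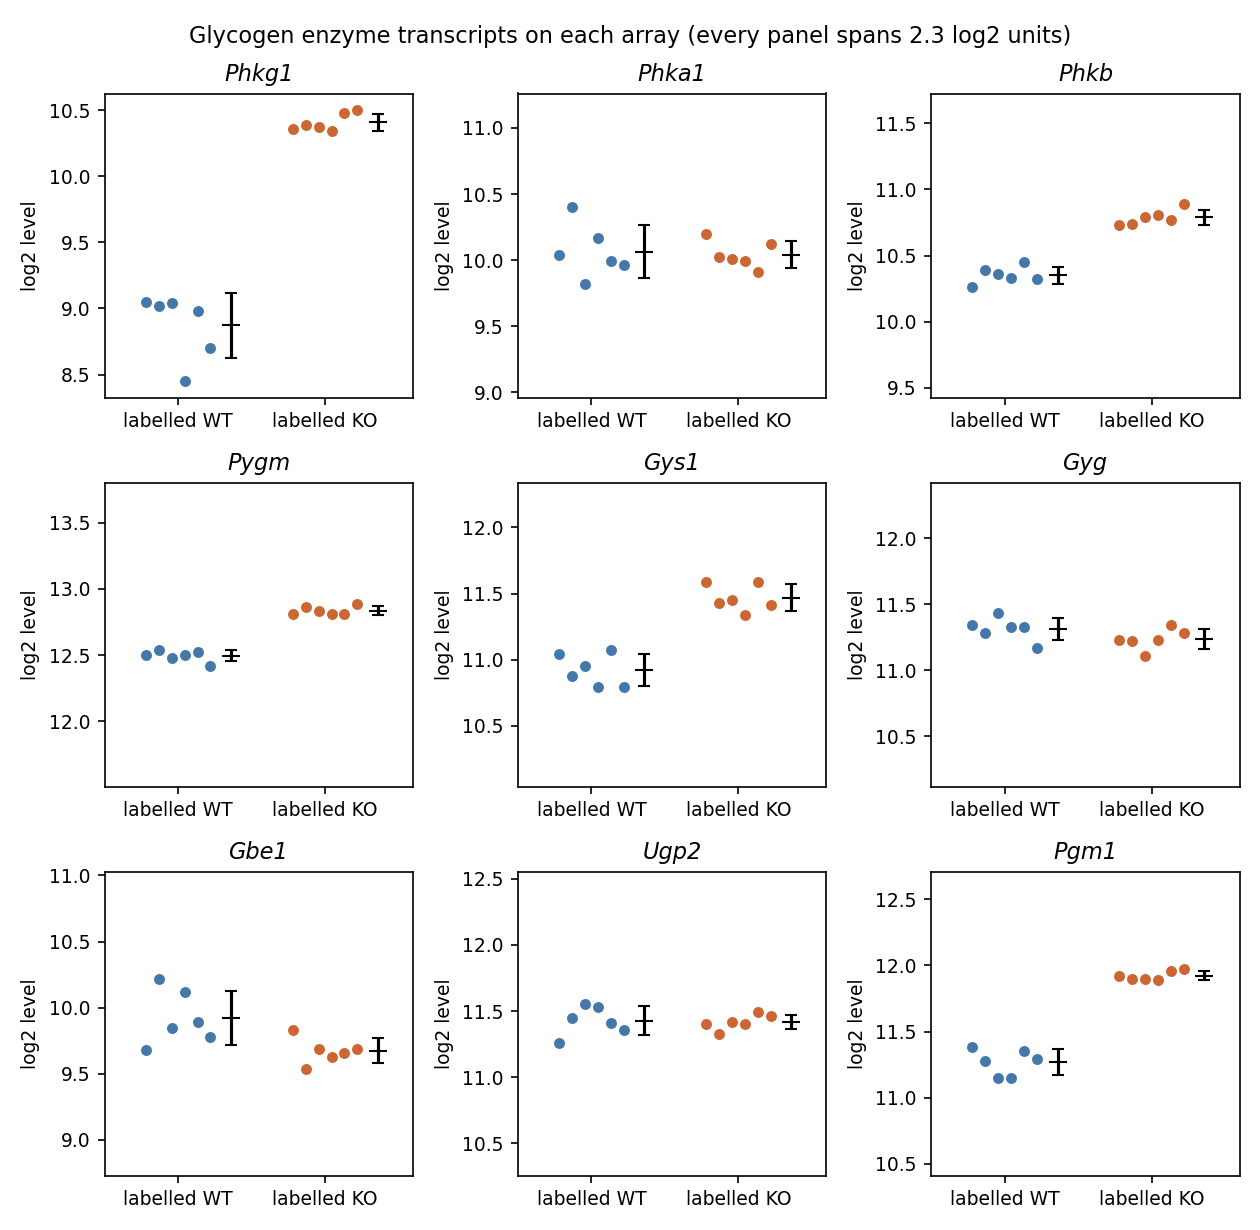
Log2 levels of the 9 glycogen enzyme genes, 1 point per array, in blue for the label WT and in orange for the label KO; the bar beside each group gives its mean and SD (n = 6). Phkg1, Phkb, Pygm, Gys1 and Pgm1 separate the groups completely, whereas Phka1, Gyg, Gbe1 and Ugp2 overlap.

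The subunits of phosphorylase kinase differed from each other. Phkg1, which encodes the catalytic gamma subunit of the muscle form, had the largest difference of the 9 genes and 0.186% of the 19938 genes had a larger difference in either direction. On the arrays labelled WT1 to WT6 its log2 level was 9.05, 9.02, 9.04, 8.45, 8.98 and 8.70, and on KO1 to KO6 it was 10.36, 10.39, 10.37, 10.34, 10.48 and 10.50. The groups were far apart, and the arrays labelled WT4 and WT6 were the low ones of their group. Phkg1 was 2.89-fold higher, a log2 difference of 1.53 ± 0.09 (SE, n = 6 and 6, limma adjusted p = 3.03e-07).

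Phkb encodes the beta subunit, a regulatory subunit that inhibits the kinase until it is phosphorylated. Its level ran from 10.26 through a median of 10.35 to 10.45 on the arrays labelled WT and from 10.73 through 10.78 to 10.89 on those labelled KO, again without overlap. It was 1.35-fold higher, with a log2 difference of 0.44 ± 0.04 (SE, limma adjusted p = 9.56e-06).

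Phka1 encodes the muscle form of the alpha subunit, the other large regulatory subunit, and lies on the X chromosome. Its levels overlapped widely, from 9.82 to 10.40 on the arrays labelled WT and from 9.91 to 10.20 on those labelled KO, and the median was 10.02 in both groups. The array labelled WT2 was the highest of all 12. The log2 difference was -0.02 ± 0.08 (SE, limma adjusted p = 0.864), with a 95% interval from -0.20 to 0.16, so that a change of Phka1 as large as that of Phkb lay outside the interval.

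The start regions of Phkg1 and Phka1 are shown because the subunits of 1 complex differed from each other. Those of Pygm and Pgm1 are shown because both were higher on the arrays labelled KO, as Phkg1 was. Each is the RefSeq promoter window of 300 bases on the GRCm38.p6 build, written 5′ to 3′ on the strand of the gene, with matches to the E-box CANNTG, the core letters bound by myogenic helix-loop-helix factors, in capitals. The windows are chr5:129879039-129879338 (minus strand) for Phkg1, chrX:102644197-102644496 (minus strand) for Phka1, chr19:6384158-6384457 (plus strand) for Pygm and chr4:99929201-99929500 (plus strand) for Pgm1.
Phkg1: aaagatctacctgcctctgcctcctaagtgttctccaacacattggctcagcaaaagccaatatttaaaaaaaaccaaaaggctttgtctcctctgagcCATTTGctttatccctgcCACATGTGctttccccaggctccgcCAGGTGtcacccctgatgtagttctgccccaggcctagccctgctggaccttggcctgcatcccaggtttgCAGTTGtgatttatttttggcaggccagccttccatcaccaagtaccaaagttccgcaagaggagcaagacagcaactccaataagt
Phka1: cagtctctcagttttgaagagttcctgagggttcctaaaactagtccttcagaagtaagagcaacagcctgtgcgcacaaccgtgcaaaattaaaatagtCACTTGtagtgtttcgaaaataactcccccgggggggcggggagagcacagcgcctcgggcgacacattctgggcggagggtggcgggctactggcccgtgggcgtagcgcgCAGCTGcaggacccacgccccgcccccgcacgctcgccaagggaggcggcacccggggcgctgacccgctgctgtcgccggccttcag
Pygm: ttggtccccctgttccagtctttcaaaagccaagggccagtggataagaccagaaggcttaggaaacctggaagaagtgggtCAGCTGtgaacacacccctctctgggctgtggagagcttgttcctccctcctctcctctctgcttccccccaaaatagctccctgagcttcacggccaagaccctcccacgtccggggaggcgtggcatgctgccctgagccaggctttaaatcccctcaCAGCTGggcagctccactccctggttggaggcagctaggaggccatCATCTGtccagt
Pgm1: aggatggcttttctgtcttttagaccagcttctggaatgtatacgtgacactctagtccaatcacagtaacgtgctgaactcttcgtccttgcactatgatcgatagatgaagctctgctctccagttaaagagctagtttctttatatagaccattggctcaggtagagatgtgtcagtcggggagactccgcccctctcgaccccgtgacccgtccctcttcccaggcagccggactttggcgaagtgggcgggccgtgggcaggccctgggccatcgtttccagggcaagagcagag
The Phkg1 window held 5 matches to CANNTG, of which a pair overlaps, while the Phka1 window held 2, the Pygm window 3 and the Pgm1 window 0. This motif reads alike on both strands and occurs in 72.3% of all 32851 RefSeq windows of this length. Its form CAGCTG stood in the windows of Phka1, Phkb, Pygm and Gys1 and in 1 of the 2 windows of Ugp2, against 16.3% of all windows. CCAAT, searched on both strands, stood in the windows of Phkg1, Gys1, Pgm1 and 1 of Ugp2, against 37.4% of all. GGGCGG, also on both strands, stood in 8 of the 10 windows of the 9 genes, against 35.7% of all, and was missing only from those of Phkg1 and Pygm. Neither AAGGTCA nor the MEF2 consensus, each searched on both strands, had a match in these 10 windows, against 4.72% and 3.19% of all windows. CACGTG, another form of the E-box, stood in the window of Gyg, against 7.15% of all windows. CAGCTG thus stood in windows of genes called higher on the arrays labelled KO and of genes that did not pass the test. The part of these motifs in the differences was not tested.

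Pygm, the phosphorylase that the kinase activates, had the smallest spread of the 9 genes within each group. Its level was lowest at 12.42, had a median of 12.50 and reached 12.54 on the arrays labelled WT, against 12.81, 12.82 and 12.89 on those labelled KO. The gap between the groups was wider than the range within either. Pygm was 1.27-fold higher, with a log2 difference of 0.34 ± 0.03 (SE, limma adjusted p = 1.37e-05).

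Pgm1, the mutase that links glycogen to glycolysis in both directions, had the second largest rise of the 9 genes. By current symbols, Pgm1 is the gene on chromosome 4 that older lists called Pgm2. Its level ran from 11.15 through a median of 11.29 to 11.38 on the arrays labelled WT and from 11.89 through 11.91 to 11.97 on those labelled KO. All 6 arrays labelled KO lay within 0.08 log2 units of each other and above every array labelled WT. Pgm1 was 1.58-fold higher, with a log2 difference of 0.66 ± 0.05 (SE, limma adjusted p = 7.57e-07).

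Of the enzymes that act on UDP-glucose or the growing chain, Gys1, which extends the chain, was higher and Ugp2, Gyg and Gbe1 were not. Gys1 ran from 10.79 through a median of 10.92 to 11.07 on the arrays labelled WT, and from 11.34 through 11.44 to 11.59 on those labelled KO. Those labelled KO1 and KO5 shared the highest value. The groups did not overlap, and Gys1 was 1.46-fold higher, with a log2 difference of 0.55 ± 0.06 (SE, limma adjusted p = 3.08e-05).

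Ugp2, which makes the UDP-glucose that glycogen synthase consumes, overlapped fully. Its arrays labelled KO, at 11.33 to 11.49, lay inside the range of those labelled WT, at 11.26 to 11.55. The log2 difference was -0.01 ± 0.05 (SE, limma adjusted p = 0.900), with a 95% interval from -0.12 to 0.10. Gyg, the primer protein, lay at 11.17 to 11.43 and 11.11 to 11.34, with a log2 difference of -0.08 ± 0.05 (SE, limma adjusted p = 0.244) and a 95% interval from -0.18 to 0.03. Neither interval reached the size of the Gys1 difference.

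Gbe1, which introduces the branches, was the member called lower, and its call was the weak one of the 9. Its level ran from 9.68 through a median of 9.87 to 10.22 on the arrays labelled WT and from 9.54 through 9.68 to 9.83 on those labelled KO. The groups overlapped, and the arrays labelled WT2 (10.22) and WT4 (10.12) stood highest. The log2 difference was -0.25 ± 0.08 (SE, limma adjusted p = 0.0362). Without the array labelled WT2 it was -0.19 (limma adjusted p = 0.0638) and without WT4 -0.21 (limma adjusted p = 0.0692), and the call was also lost without WT5 or any of KO2 to KO6. With the replicate number as a block the limma adjusted p was 0.0900. The adjusted p with the level of fast fibre genes as a covariate was 0.521 at a difference of -0.11. Over the 24 alternatives tried, the difference lay between -0.30 and -0.11.

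Many of these enzymes have sister forms that serve liver, brain or most tissues, and 7 differences between a pair of genes were compared on each array with a two-sided exact permutation test, adjusted over the 7. The level gap between 2 probe sets has no meaning of its own, and only its change between groups is read. The catalytic kinase subunits parted most. Phkg1 minus Phkg2, the form of liver and testis, ran from -0.01 through a median of 0.39 to 0.52 on the arrays labelled WT and from 1.71 through 1.90 to 1.94 on those labelled KO. The change was 1.55 ± 0.10 (SE; exact p = 0.00216, adjusted 0.00378). That p is the smallest that the 924 assignments of the arrays can give. Phkg2 itself had a log2 difference of -0.02 ± 0.08 (SE, limma adjusted p = 0.873).

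The alpha subunits parted the other way. Phka1 minus Phka2, the liver form, ran from 0.83 to 1.23 in the group labelled WT and from 0.62 to 0.99 in the group labelled KO, with overlap. It changed by -0.23 ± 0.07 (SE, exact p = 0.013, adjusted 0.0177). With the replicate numbers as pairs the adjusted p was 0.0729. That was a sign-flip test with fewer arrangements, so the smallest p it can give is higher. Behind the change stood Phka2, which was 1.16-fold higher with a log2 difference of 0.21 ± 0.06 (SE, limma adjusted p = 0.0115). This call was lost once the level of adipocyte genes entered the fit (adjusted p = 0.0802).

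Phosphorylase forms behaved unequally as well. Pygb, the brain form, lay between 8.90 and 9.22 in the group labelled WT and between 9.39 and 9.57 in the group labelled KO. It rose, with a log2 difference of 0.40 ± 0.05 (SE, limma adjusted p = 0.000115). Pygm minus Pygb changed by -0.06 ± 0.05 (SE; exact p = 0.329, also 0.329 adjusted), which misses the threshold and does not show that the change is the same. Pygl, the liver form, had a log2 difference of 0.04 ± 0.10 (SE, limma adjusted p = 0.805), and Pygm minus Pygl changed by 0.31 ± 0.10 (SE; exact p = 0.00216, adjusted 0.00378). On the array labelled WT4 Pygl stood at 7.65, against 6.97 to 7.24 on the other 11, and the mean of 7 neutrophil markers was 9.07 there against 5.48 to 6.00 elsewhere. Without the arrays labelled KO5, WT2 and WT4 the Pygl difference was 0.17 (limma adjusted p = 0.0252). The part of these cells in the Pygl level was not tested.

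Gys1 minus Gys2, the liver synthase, changed by 0.48 ± 0.08 (SE; exact p = 0.00216, adjusted 0.00378), but Gys2 was dim, at 4.37 to 4.64 on all arrays. Comparing successive steps, Phkg1 minus Pygm changed by 1.19 ± 0.10 (SE; exact p = 0.00216, adjusted 0.00378). Between breakdown and synthesis, Pygm minus Gys1 changed by -0.21 ± 0.07 (SE, exact p = 0.0152, adjusted 0.0177). These are changes of probe set signals, and whether the probe sets respond alike to RNA was not tested. The Pygm probe set was bright, with 0.351% of genes at a higher mean level.

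**Figure D2:**
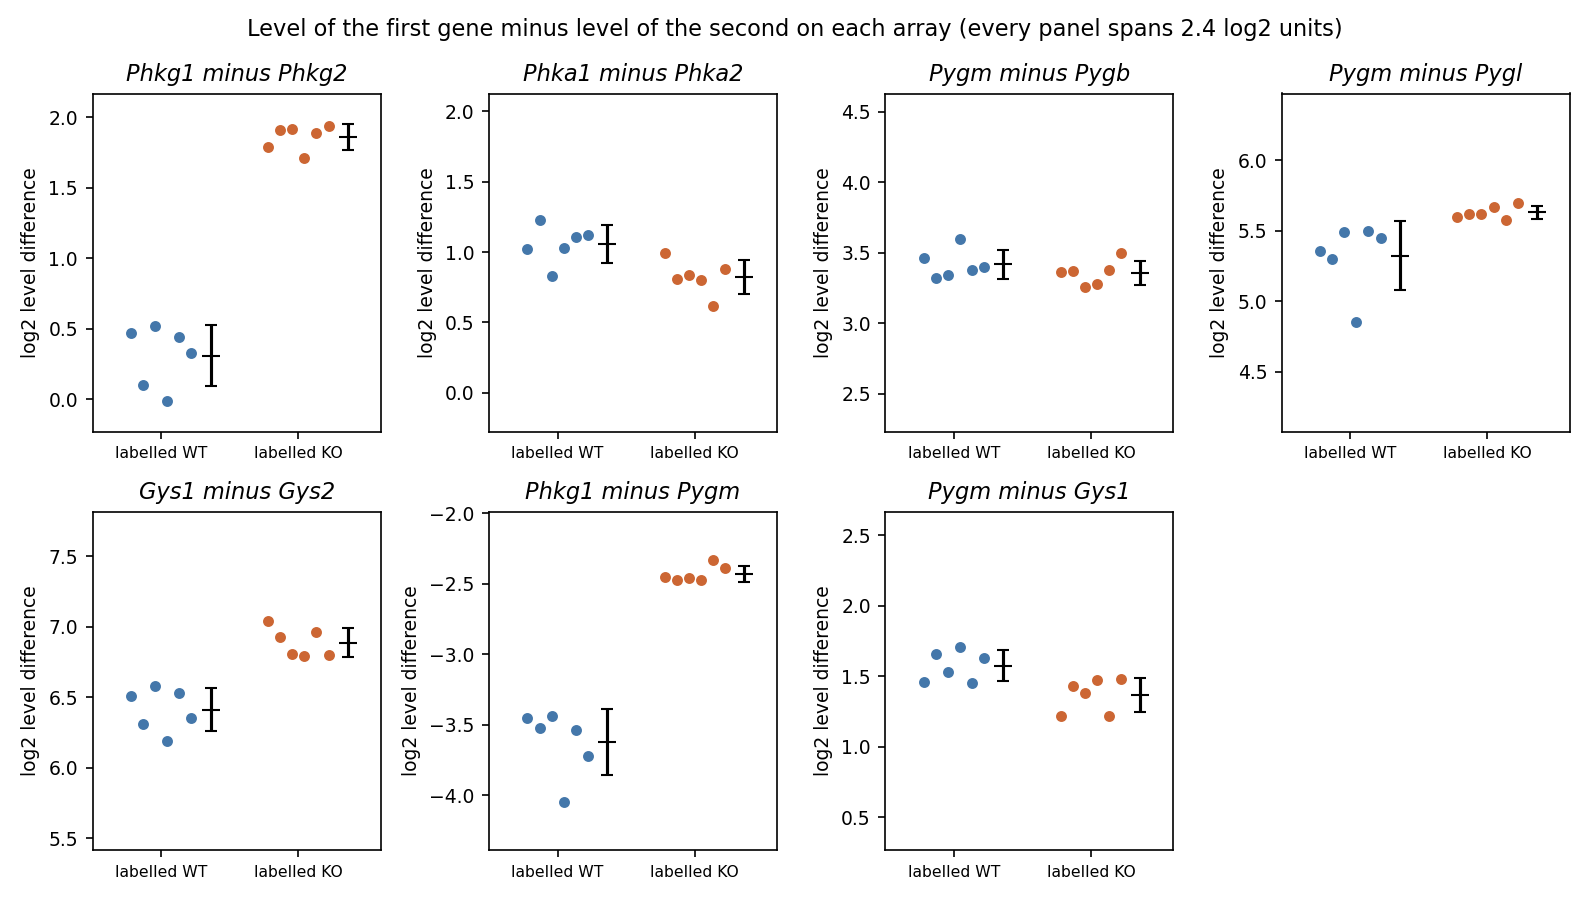
Log2 level of the first gene minus that of the second for the 7 gene pairs, 1 point per array, in blue for the label WT and in orange for the label KO, with the mean and SD (n = 6) beside each group. Phkg1 minus Phkg2 and Phkg1 minus Pygm separate the groups, with means more than 1 log2 unit apart, whereas Pygm minus Pygb overlaps.

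Other genes of glycogen and glucose handling were read in 5 lists, also chosen with earlier results of these data known. Of their 52 genes 44 were measured. Over these, 17 passed as higher, 4 as lower and 23 not, beside 19.5% and 12.4% of all probe sets, with a median log2 difference of 0.09. When the adipocyte level was added to the fit, 11 were higher and 2 lower, beside 12.9% and 6.38% of all probe sets. Of 9 other glycogen enzymes 5 were higher and 0 lower. Calm2 and Calm3 encode calmodulin, the subunit through which phosphorylase kinase senses calcium, and were 1.44-fold and 1.31-fold higher (limma adjusted p = 3.82e-05 and 1.49e-05). Pgm2, a relative of Pgm1, was 1.38-fold higher (7.93 to 8.55 against 8.61 to 8.80, limma adjusted p = 0.000892). Gaa, the acid glucosidase that digests glycogen in lysosomes, had a log2 difference of -0.09 ± 0.05 (SE, limma adjusted p = 0.245).

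Among 15 proteins that target phosphatase to glycogen or regulate it, 3 were higher and 2 lower, close to the shares of all probe sets (19.5% and 12.4%). Ppp1r3a encodes the muscle subunit that tethers protein phosphatase 1 to glycogen, where it activates synthase. It ran from 10.58 to 10.90 under the label WT and from 11.16 to 11.34 under the label KO, 1.45-fold higher (log2 difference 0.53 ± 0.06 SE, limma adjusted p = 2.47e-05). The other 6 targeting subunits measured, Ppp1r3b to Ppp1r3g, had log2 differences from -0.10 to 0.11 and did not pass. Epm2a, the glycogen phosphatase laforin, had a log2 difference of 0.22 ± 0.05 and its partner Nhlrc1, the ubiquitin ligase malin, of -0.23 ± 0.07 (SE, limma adjusted p = 0.00712 and 0.0166). The Epm2a call was lost with quantile normalization (adjusted p = 0.0621) and with the fast fibre level as a covariate (0.459), and that of Nhlrc1 with the replicate block (0.0559) and the adipocyte level (0.132). Gsk3b, a kinase that inhibits glycogen synthase, had a log2 difference of -0.29 ± 0.07 (SE, limma adjusted p = 0.00925), which was lost when KO5, WT2 and WT4 were left out (0.0647) and when the fast fibre level entered the fit (0.207).

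For glucose entry, 1 of 5 genes was higher and 1 lower, close to the shares of all probe sets (19.5% and 12.4%). Hk2, the insulin-regulated hexokinase of muscle, was 1.52-fold higher (8.59 to 9.36 against 9.45 to 9.90, limma adjusted p = 0.00172). Hk1, the general form, had 2 probe sets, of which the one with the higher mean was used. Its log2 difference was -0.18 ± 0.04 (SE, limma adjusted p = 0.00639), without overlap of the groups. The limma adjusted p was 0.0699 with the adipocyte and 0.109 with the fast fibre level as a covariate. Slc2a4, the insulin-regulated glucose transporter, had a log2 difference of 0.09 ± 0.08 (SE, limma adjusted p = 0.438).

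Of 12 genes that carry cAMP and AMPK signals, 6 were higher and 1 lower, beside 19.5% and 12.4% of all probe sets. Prkag3, the AMPK gamma subunit particular to glycolytic muscle, was 1.40-fold higher (8.59 to 8.93 against 9.04 to 9.49, limma adjusted p = 0.000358). Prkag2 and Prkaa2, 2 more subunits of this energy sensor, were 1.16-fold higher each (limma adjusted p = 0.0170 and 0.0230). Both calls were lost once the adipocyte level entered the fit (0.173 and 0.132), that of Prkag2 also with quantile normalization (0.103) and the fast fibre level (0.0950), and that of Prkaa2 with the replicate block (0.0724) or without the array labelled KO2 (0.0529). Prkar2b, a regulatory subunit of protein kinase A that is abundant in fat and brain, was 2.64-fold higher (limma adjusted p = 0.00134). Its level was 8.87 to 9.32 on 5 arrays labelled KO but 7.79 on KO5, within the 7.05 to 8.31 of the arrays labelled WT. With the adipocyte level in the fit its log2 difference went from 1.40 to 0.81 (limma adjusted p = 0.0476).

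Of 3 measured genes of galactose and UDP-glucose use, Galm, which converts forms of galactose and glucose, was 1.54-fold higher and Ugdh, which turns UDP-glucose into UDP-glucuronate, 1.26-fold higher (limma adjusted p = 1.65e-05 and 0.00161), while Galt had a log2 difference of -0.05 ± 0.08 (SE, limma adjusted p = 0.641).

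**Figure D3:**
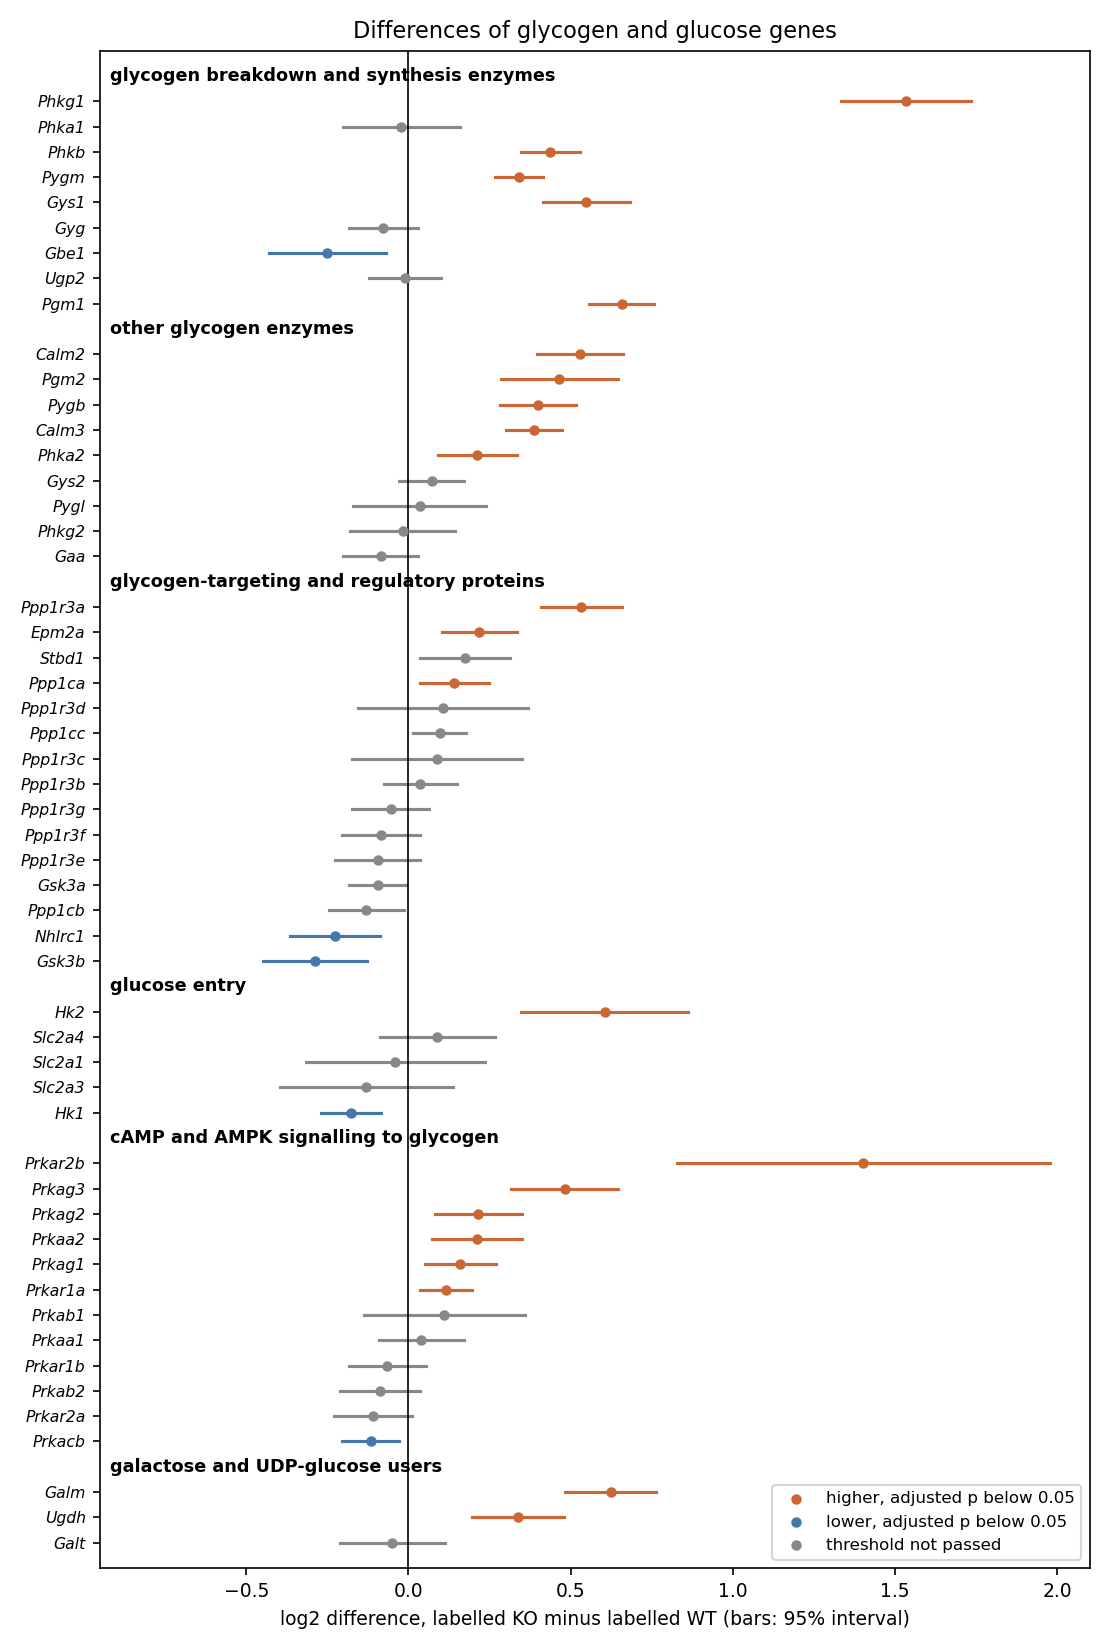
Log2 difference, labelled KO minus labelled WT, of the 9 glycogen enzyme genes and of 44 other glycogen and glucose genes in 5 lists; points are differences, bars are 95% intervals, and colour gives the limma call (orange higher, blue lower, grey threshold not passed). Phkg1 (1.53) and Prkar2b (1.40) lie far to the right of all others, and the others lie between -0.29 and 0.66.

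Markers of several cell types and of fibre types also differed between the labels, not all in 1 direction. The mean log2 level of 9 fast fibre genes was 12.17 to 12.63 on the arrays labelled WT, against 12.67 to 12.87 on those labelled KO, with 3 of the 9 higher and 2 lower. That of 9 adipocyte genes was 8.70 to 9.53 and 8.60 to 10.11, with 4 higher and 1 lower, and KO5 was the lowest of all 12 arrays. That of 9 macrophage genes was 8.17 to 8.61 and 8.73 to 8.94, with 7 higher and 0 lower. Of 6 endothelial genes 5 were higher and 0 lower, of 6 fibroblast genes 5 and 1, of 8 slow fibre genes 2 and 4, and of 10 general skeletal muscle genes 0 and 4. All these marker counts are from the main fit, in which 19.5% of all probe sets were higher and 12.4% lower. With the adipocyte level in the fit the 5 rises were 1.53 for Phkg1, 0.65 for Pgm1, 0.61 for Gys1, 0.44 for Phkb and 0.32 for Pygm, and with the fast fibre level 1.39, 0.53, 0.47, 0.46 and 0.35, each past the threshold, which 12.9% and 16.1% of all probe sets passed as higher in these fits. The fast fibre mean did not overlap between the labels, so the fit with it can hardly tell fast fibre level and label apart. The array labelled KO5 was lowest in adipocyte genes. There the 5 genes lay within the range of the other arrays labelled KO or at most level with their highest or lowest value. This is 1 array and a description only. The part of adipocytes, fibre types, macrophages, endothelium and fibroblasts in these rises was not tested.

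**Figure D4:**
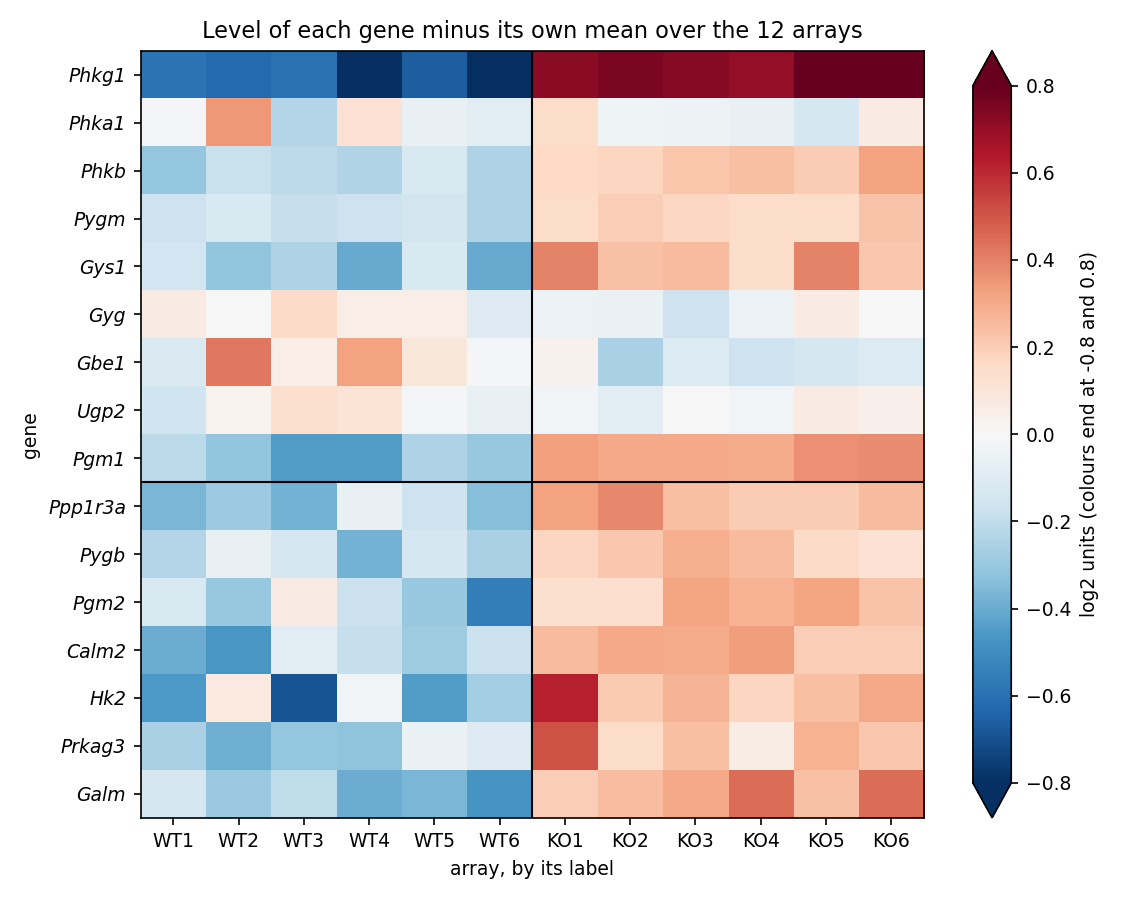
Level of each gene minus its own mean over the 12 arrays, in log2 units, for the 9 glycogen enzyme genes (above the line) and 7 other genes (below it); columns are arrays by label, red is above and blue below the mean. Phkg1, Phkb, Pygm, Gys1 and Pgm1 are blue on all 6 arrays labelled WT and red on all 6 labelled KO, while Phka1, Gyg, Gbe1 and Ugp2 are mixed.

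The genes whose course over the 12 arrays lay nearest to that of Phkg1 were Ociad2, Smco1, Gnb3, Cmbl and Rpl3l, by the root mean square difference after each gene was centred on its own mean. That difference was 0.11, 0.15, 0.15, 0.16 and 0.16 log2 units in this order. Rpl3l encodes a ribosomal protein of heart and skeletal muscle, and Gnb3 a G protein beta subunit. Among the other glycogen enzymes Pgm1 came nearest at 0.46, since none of them rose as far. The 5 genes were picked by this likeness, so that their differences of 1.31 to 1.68 on the log2 scale are a description only.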

How the data were processed

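Total RNA of quadriceps from 12 mice aged 7 days was hybridized to Affymetrix Mouse Gene 1.0 ST arrays, 1 mouse per array. Per the study's methods the authors extracted images with GeneChip Operating Software and made normalized gene level values with Affymetrix Power Tools (version, algorithm and build not given in the sources used here). From their range, the deposited values were read as log2 levels. Of 35556 rows, 21789 had 1 gene symbol in the platform annotation, with symbols updated by gene identifier from RefSeq (GRCm38.p6); 1621 had several and 12146 were not listed. Where a gene had several probe sets, the one with the highest mean stood for it.

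Groups came from sample titles. Differences were fitted with lmFit and eBayes of limma 3.58.1 in R 4.3.3 and adjusted by Benjamini-Hochberg over the 21789 probe sets at 0.05, with no further normalization, no dim filter and no covariate, and checked on simulated data. The number of arrays limits precision. Gene pairs were compared by exact permutation of arrays. Genes named are the 9 enzymes, their sister forms, up to 4 called genes of each list with the largest differences, and the 5 genes nearest to Phkg1; Gaa, Slc2a4, Galt, Pygl and the phosphatase subunits that did not pass are given beside them. The members and lists were chosen with earlier results of these data known. The labels number mice 1 to 6 in each group. The study collected 6 littermate pairs, but no label ties equal numbers to a litter, so the main fit has no block and the replicate block is an alternative. Promoter windows came from RefSeq and hold all 9 genes.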

Additional observations from a re-analysis of the deposited data

Results flagged for a closer look

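No array stood apart from its group in any of the 9 glycogen enzyme genes (0 of 18 groups of 6 arrays). Among other genes of the pathway 5 of 88 groups, and among gene pairs 1 of 14, had 1 array far from the others of its group, where chance gives about 1 in 20. Prkar2b was at 7.79 on the array labelled KO5, against 8.87 to 9.32 on the other 5. Hk2 was at 9.90 on KO1 (others 9.45 to 9.58), Hk1 at 12.14 on KO3 (12.30 to 12.39), Ppp1cb at 11.78 on KO1 (11.89 to 11.95) and Galt at 9.47 on KO5 (9.28 to 9.33). Pygm minus Pygl was 4.85 on WT4, with the others labelled WT at 5.30 or above.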

How the results depend on the processing

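Phkg1, Pgm1, Gys1, Phkb and Pygm were called higher under all 24 alternatives, with log2 differences of 1.39 to 1.58, 0.53 to 0.71, 0.47 to 0.61, 0.41 to 0.49 and 0.32 to 0.39. Phka1, Gyg and Ugp2 were called under none of them. The count of 1 lower gene, Gbe1, became 0 with the replicate block, median centring, all rows of the table, the methods' t-test, the adipocyte or fast fibre level in the fit, and with KO5, WT2 and WT4 left out, an alternative chosen after seeing the data. The cause was not tested. It ranged from 0 to 1 when single arrays were left out. Among the 44 other genes, 11 were higher with the adipocyte level in the fit, and 2 were lower with it, with the fast fibre level, with the replicate block and without those 3 arrays; leaving out single arrays gave 14 to 16 higher and 3 to 5 lower. Over all probe sets, the adipocyte level left 2807 higher and 1391 lower, and median centring 5469 higher and 1557 lower, so that 77.8% of calls were higher in place of 61.1%; single arrays gave 3752 to 4337 and 2141 to 2910. The methods' t-test selected 8864 probe sets, 6 of the 9 enzymes among them, with the fold limits of the methods read as linear folds. It selected 2087, with 3 of the 9, when they were read as ratios of the log2 levels, a reading added after seeing the data. The methods do not say which applies. Linear folds, labelled WT over labelled KO, were 0.0125 for Cfl2 and 0.230 for the adipocyte gene Lep. The KO/WT ratios that the study printed for both lie much nearer to ratios of the log2 levels in that order. After Benjamini-Hochberg, without fold limits, the methods' t-test called 6342, against 6952 with limma. The replicate numbers do not clearly pair the mice (correlations of deviations from the group means between -0.22 and 0.17, above 0.1 in 2 of 6, and 2 of 6 arrays labelled KO correlated best with their own number). With the replicate block 14 of the other genes were higher. The Phka1 minus Phka2 change of -0.23 had an adjusted p of 0.0729 in the coarser sign-flip test on pairs. The other gene pair calls were the same under the replicate block and quantile normalization (median centring cannot change them), and with single arrays left out Phka1 minus Phka2 ranged from -0.28 to -0.19. No detection call was used, so for a dim gene such as Gys2 the signal over background is not known.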
